A study of Mus musculus with 6 samples.

Results

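The genes described here are 33 genes of the mammary epithelium: keratins, cell junction genes, surface proteins, transcription and splicing regulators, receptors and milk proteins. They were chosen by symbol from a fixed list, and all 33 have a row among the 24015 gene symbols of the count table. The RNA came from primary CAFs (cancer-associated fibroblasts, the stromal fibroblasts of a tumour) cultured from mammary tumours of NeuT mice, strain background BalbC, and poly(A) RNA was sequenced. In NeuT mice the mouse mammary tumour virus promoter drives an activated rat Her2/neu transgene in the mammary epithelium, which forms carcinomas. All 6 samples share this origin. Nanoparticles with control siRNA were given to 3 samples and nanoparticles with anti-Stat3 siRNA to 3 others, at 1 ug/mL for 72 hours. The labels number the samples 1 to 3 in each group. Since the samples that share a number also deviated alike, the control and anti-Stat3 sample of a number are called pair 1, 2 or 3.

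The mammary duct and alveolus are lined by luminal cells, which carry keratins 7, 8, 18 and 19, and wrapped by basal myoepithelial cells, which carry keratins 5 and 14 and the transcription factor p63. Luminal cells secrete milk proteins at lactation, when prolactin acts through the JAK2 kinase and STAT5. STAT3 is activated in the same cells at weaning, when the gland involutes. Caseins, E-cadherin and EPCAM are textbook products of epithelium and not of fibroblasts.

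Total counts per library ranged from 12998168 to 18683852. Levels are in CPM, the count over the library total after TMM scaling. A gene with 0 counts may have a level up to 0.159 to 0.23 CPM, depending on the library (3 counts; counting error only). The targeted gene Stat3 stood at 220, 359 and 404 CPM in controls 1 to 3 and at 34.7, 81.8 and 78.8 CPM in their partners. The 11 fibroblast markers summed to between 24570 and 69170 CPM in every library, so markers of the labelled cell type were present. The 12 macrophage markers summed to 45.5 and 40.0 CPM in pair 1 and to between 1527 and 2568 CPM in pairs 2 and 3, and the part of these cells in the results was not tested. The 26 members other than milk proteins summed to between 124 and 917 CPM. Endothelial markers summed to at most 40.3 CPM, adipocyte markers to at most 25.3 CPM, with Lep and Cidec at 0 in all 6 libraries, and lymphocyte markers to at most 0.338 CPM.

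**Figure D1:**
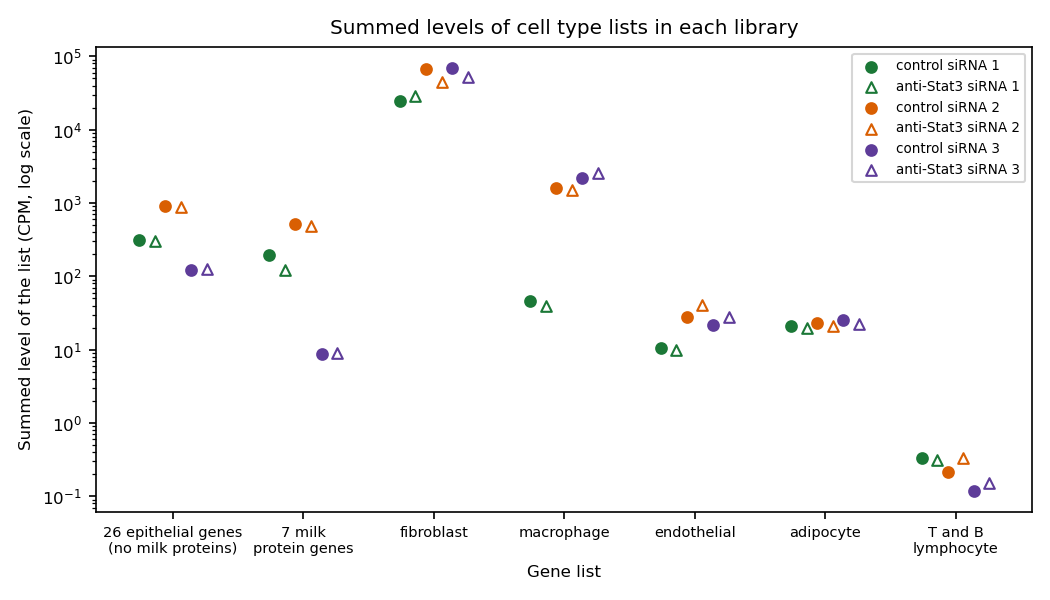
Summed level of each gene list (CPM, log scale) in the 6 libraries, with filled circles for control siRNA, open triangles for anti-Stat3 siRNA and a colour per pair. The epithelial genes were highest in pair 2 (917 and 894 CPM) and lowest in pair 3 (124 and 125 CPM), while the macrophage list was lowest in pair 1.

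Epithelial transcripts were present in every CAF library, and their level differed between pairs, while no member passed the test for an siRNA change. The 33 members together reached 512, 1430 and 132 CPM in control samples 1 to 3 and 429, 1386 and 134 CPM in anti-Stat3 samples 1 to 3. Both libraries of pair 2 were thus highest and both of pair 3 lowest, with the siRNA groups overlapping throughout. At least 1 count was present in every library for 26 of the 33 genes, and 2, Csn2 and Wap, had 0 counts in all 6. Both libraries of pair 2 lay above the other 4 for 26 of all 33 members and for 24 of the 27 that passed a filter on low counts, as they did for 17.3% of all genes that passed it. Of the 11 fibroblast markers 7 were also higher in pair 2 than in pair 1 and 1 was lower (14% and 12.1% of all genes tested). Against pair 3, 4 were higher and 1 lower in pair 2 (12.2% and 13%). Both pair 2 libraries were highest for 3 of them: Lum (104 and 103 CPM, at most 45.9 elsewhere), Fap (29.4 and 27.1 CPM, at most 8.28 elsewhere) and Dcn (1480 and 1032 CPM, at most 694 elsewhere). The 1 marker that was lower in pair 2 than in either other pair was S100a4 (145 and 168 CPM, at least 439 elsewhere). The part of the fibroblast markers in the epithelial differences was not tested. In bulk samples, fewer epithelial cells and less RNA of these genes per cell cannot be told apart.

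**Figure D2:**
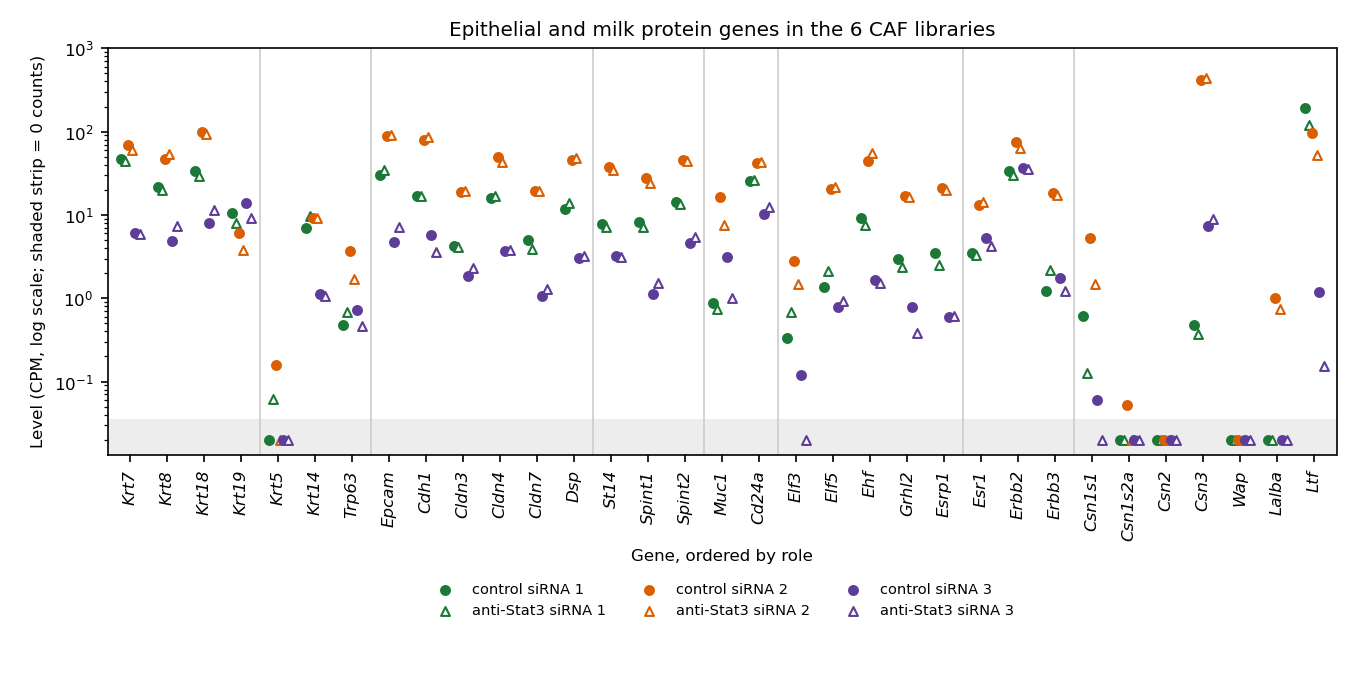
Level of each of the 33 genes (CPM, log scale) in each library, ordered by role, with filled circles for control siRNA, open triangles for anti-Stat3 siRNA, a colour per pair and libraries with 0 counts drawn in the shaded strip. Pair 2 lies above the other libraries for most genes, Krt19 and Ltf break the order, and Csn2 and Wap lie in the strip in all 6 libraries.

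Differences between pairs were tested in edgeR (quasi-likelihood F test) with the siRNA group and the number as terms, and p-values were adjusted over all 13284 genes that passed a filter on low counts. Each pair holds 1 control and 1 anti-Stat3 library, so the test sets a difference between pairs against the spread left within pairs. Of the 33 members 27 passed the filter, which needs about 10 counts in at least 3 libraries and so cannot be met by pair 2 alone. All 27 differed between pairs at an adjusted p under 0.05 (the highest, 0.010, was that of Trp63), where 41.5% of all genes tested did. Without pair 2, 19 of 26 tested members differed between pairs 1 and 3, where 28.6% of all genes tested did. The sources used here do not say what samples of a pair have in common. Pair 3 is described under another naming scheme than pairs 1 and 2, and that scheme and the pair cannot be told apart.

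Against pair 1, 24 of the 27 were higher in pair 2 (14% of all genes tested were) and 2, Krt19 and Ltf, were lower (12.1%), and Krt14 did not pass. Against pair 3, 26 were higher in pair 2 (12.2%) and 1, Krt19, was lower (13%). Between pairs 3 and 1, 19 members were lower in pair 3 (14.1%), 2, Muc1 and Csn3, were higher (14.9%), and 6 did not pass. The median log2 difference of the 27 was 1.99 between pairs 2 and 1 and 3.58 between pairs 2 and 3, where the medians of all genes were -0.0044 and -0.023.

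**Figure D3:**
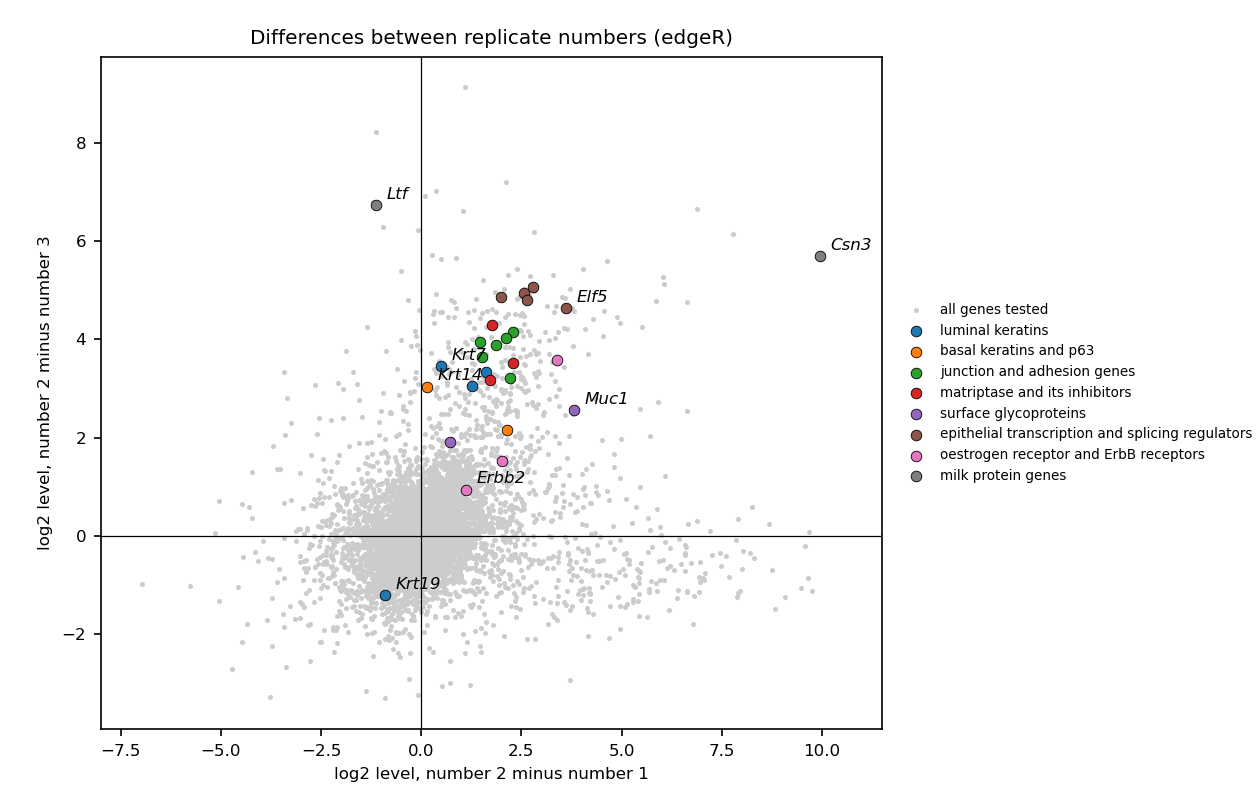
Fitted log2 difference of pair 2 minus pair 1 (x axis) and of pair 2 minus pair 3 (y axis) for all 13284 genes tested (grey) and the 27 tested members, coloured by role. Most members lie at the upper right, Csn3 lies at 9.95 and 5.70, Ltf at -1.12 and 6.73, and Krt19 is negative on both axes.

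Keratins are the intermediate filaments of epithelial cells. Krt18, the type I partner of keratin 8 in simple epithelia, had 33.6, 97.8 and 7.91 CPM in controls 1 to 3 and 29.0, 93.9 and 11.3 CPM in their anti-Stat3 partners, highest in pair 2 and lowest in pair 3. Its partner Krt8 had 21.5, 46.4 and 4.85 CPM in controls 1 to 3 and 19.9, 54.1 and 7.36 CPM in their anti-Stat3 partners, in the same order. Krt7, a type II keratin of ducts, had 46.8, 70.0 and 5.99 CPM in controls 1 to 3 and 44.8, 60.3 and 5.83 CPM in their anti-Stat3 partners, so pairs 1 and 2 lay closer together than for Krt18.

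Krt19, a type I keratin of luminal cells, ran the other way. It had 10.4, 6.13 and 13.8 CPM in controls 1 to 3 and 8.02, 3.77 and 9.12 CPM in their anti-Stat3 partners, lowest in pair 2. It was lower in pair 2 than in pair 1 by 0.91 ± 0.19 on the log2 scale (SE, edgeR adjusted p = 0.013). Against pair 3 its log2 difference was -1.21 ± 0.19 (SE, adjusted p = 0.0061). Per kilobase of transcript, Krt18 stood at 66.7 RPKM and Krt19 at 3.14 RPKM in pair 2, but at 6.70 and 7.26 RPKM in pair 3.

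Basal keratins were low. Krt14 had 7.03, 9.20 and 1.14 CPM in controls 1 to 3 and 9.64, 9.15 and 1.07 CPM in their anti-Stat3 partners, so pairs 1 and 2 overlapped and both lay above pair 3. Krt5, the partner of keratin 14 in basal cells, had 3 counts in control sample 2, 1 count in anti-Stat3 sample 1 and 0 in the other 4 libraries, all at or under the limit of 3 counts. Trp63, the gene of p63, had between 0.460 and 3.70 CPM, with both pair 2 libraries highest. Acta2 and Cnn1, contractile genes that myoepithelial cells share with myofibroblasts, were lowest in pair 2: Acta2 had 2290 and 2339 CPM there and at least 5084 CPM in the other libraries. The list of 7 myoepithelial genes that holds them was mixed. Of the 7, 2 were higher and 4 lower in pair 2 than in pair 1 (14% and 12.1% of all genes tested). Against pair 3, 2 were higher and 4 lower (12.2% and 13%), not all of them the same genes. Cdh3 was higher in pair 2 than in pair 1 (log2 difference 0.93 ± 0.18, SE) but lower than in pair 3 (-0.81 ± 0.18). Oxtr, the oxytocin receptor gene, was highest in pair 2 (29.4 and 17.4 CPM, at most 5.21 elsewhere).

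Epcam, a surface adhesion molecule of epithelia, had 30.1, 87.9 and 4.67 CPM in controls 1 to 3 and 34.6, 91.2 and 7.21 CPM in their anti-Stat3 partners. Cdh1, the gene of E-cadherin, had 16.8, 79.5 and 5.69 CPM in controls 1 to 3 and 16.8, 85.5 and 3.60 CPM in their anti-Stat3 partners. In all 6 genes of this role (the adhesion genes Epcam and Cdh1, the desmosome gene Dsp and the tight junction claudins Cldn3, Cldn4 and Cldn7) both libraries of pair 2 were highest and both of pair 3 lowest. Among the claudins, Cldn4 stood highest, at 49.5 and 43.3 CPM in pair 2, 16 and 16.7 CPM in pair 1 and 3.65 and 3.83 CPM in pair 3. Cldn3 ranged from 1.86 CPM in control 3 to 19.5 CPM in anti-Stat3 sample 2, and Cldn7 from 1.08 CPM to 19.5 CPM in the same libraries. Within each pair the 2 libraries of these genes lay closer to each other than to any other pair. Dsp, which encodes desmoplakin, the linker of desmosomes to keratin, was higher in pair 2 than in pair 1 by 1.87 ± 0.14 and than in pair 3 by 3.89 ± 0.16 on the log2 scale (SE; edgeR adjusted p = 0.00017 and 4.6e-05).

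St14 encodes matriptase, a membrane serine protease of epithelia, and Spint1 and Spint2 encode its Kunitz-type inhibitors. The protease and both inhibitors kept the order of the junction genes, with log2 differences between pairs 2 and 1 of 2.29 ± 0.15, 1.76 ± 0.18 and 1.71 ± 0.15 (SE). St14 had 37.9 and 34.9 CPM in pair 2, 7.84 and 7.08 CPM in pair 1 and 3.18 and 3.14 CPM in pair 3. Against pair 3, pair 2 was higher by 3.53, 4.30 and 3.18 on the log2 scale for St14, Spint1 and Spint2. Per kilobase, Spint2 (32.6 RPKM in pair 2) stood above Spint1 (11.2) and St14 (11.2).

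Muc1, the membrane mucin of the apical surface, had 0.879, 16.5 and 3.12 CPM in controls 1 to 3 and 0.752, 7.60 and 0.997 CPM in their anti-Stat3 partners. Both libraries of pair 1 were lowest, where for Epcam those of pair 3 were, and Muc1 was higher in pair 3 than in pair 1 by 1.26 ± 0.39 (SE, edgeR adjusted p = 0.049). Cd24a, a surface glycoprotein of epithelial and blood cells, varied less, between 10.2 and 43.1 CPM, with the order of Epcam.

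All 5 transcription and splicing regulators were higher in pair 2 than in either other pair. Their median log2 difference between pairs 2 and 1 was 2.65, beside 0.89 for the 4 luminal keratins and 2.00 for the 6 junction genes. Elf5, an ETS factor that drives alveolar differentiation and milk gene expression, had 1.35, 20.6 and 0.779 CPM in controls 1 to 3 and 2.13, 21.6 and 0.920 CPM in their anti-Stat3 partners. Its log2 difference between pairs 2 and 1 was 3.60 ± 0.23 (SE, edgeR adjusted p = 9.0e-05). Ehf, another epithelial ETS factor, Grhl2, which activates junction genes, and Esrp1, a splicing factor that keeps epithelial isoforms, differed between pairs 2 and 1 by 2.56, 2.65 and 2.79. Ehf reached 44.5 and 54.7 CPM in pair 2 and 1.68 and 1.53 CPM in pair 3. Esrp1 had 20.8 and 20.2 CPM in pair 2, 3.45 and 2.50 CPM in pair 1 and 0.599 and 0.613 CPM in pair 3, and Grhl2 followed the same order from 17.0 down to 0.383 CPM. Elf3 stayed between 0 and 2.80 CPM, from 0 counts in anti-Stat3 sample 3 to 53 counts in control sample 2.

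All 3 receptors were higher in pair 2 than in pairs 1 and 3. Erbb2, the receptor tyrosine kinase HER2, had 33.7, 75.8 and 36.2 CPM in controls 1 to 3 and 30.3, 63.3 and 35.9 CPM in their anti-Stat3 partners, so pairs 1 and 3 were alike in level, with a log2 difference of 0.17 ± 0.13 (SE, edgeR adjusted p = 0.35), where Epcam differed by -2.46 ± 0.18. The NeuT transgene is rat Her2/neu, and whether its reads were counted under mouse Erbb2 was not tested. Erbb3, the partner of ERBB2 in signalling, had 18.5 and 17.6 CPM in pair 2 and between 1.22 and 2.19 CPM elsewhere. Esr1, the oestrogen receptor alpha gene, which mammary stroma also expresses, had 13.2 and 14.3 CPM in pair 2 and between 3.32 and 5.27 CPM elsewhere. Neither Erbb3 nor Esr1 passed between pairs 3 and 1 (adjusted p = 0.73 and 0.14).

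The milk protein genes did not move as a set. Csn3, which encodes kappa-casein, the casein that stabilises the micelle surface, had 0.473, 412 and 7.43 CPM in controls 1 to 3 and 0.376, 437 and 8.97 CPM in their anti-Stat3 partners. Its counts were 7791 and 6498 in pair 2 against 7 and 6 in pair 1. The log2 difference was 9.95 ± 0.23 between pairs 2 and 1, 4.25 ± 0.23 between pairs 3 and 1 and 5.70 ± 0.17 between pairs 2 and 3 (SE; edgeR adjusted p = 5.3e-06, 4.8e-05 and 1.9e-05). Csn3 alone took 28.8% of all counts of the 33 genes in control sample 2 (95% Wilson interval 28.3% to 29.3%) and 31.6% in anti-Stat3 sample 2 (30.9% to 32.2%). These intervals cover the counting error of 1 library each, not the spread between samples.

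Ltf, which encodes lactoferrin, an iron-binding protein of milk and of neutrophil granules, was highest where Csn3 was lowest. It had 195, 95.1 and 1.20 CPM in controls 1 to 3 and 121, 52.4 and 0.153 CPM in their anti-Stat3 partners. Pair 1 thus lay above pair 2 in both siRNA groups, and pair 3 stood at 20 and 2 counts. Ltf took 38.0% of the counts of the 33 genes in control sample 1 (36.9% to 39.1%) and 0.905% in control sample 3 (0.586% to 1.39%). These are 95% Wilson intervals for the counting error alone.

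The other milk proteins had few or 0 counts. Csn1s1, alpha-S1-casein, had 9, 101 and 1 counts in the controls and 2, 22 and 0 counts after anti-Stat3 siRNA. That is 5.34 CPM (exact 95% Poisson interval 4.35 to 6.49) in control sample 2 and 1.48 CPM (0.928 to 2.24) in anti-Stat3 sample 2. Each interval covers the counting error of 1 library and not the spread between samples, so it does not test an siRNA change. Lalba, alpha-lactalbumin, which completes lactose synthase, had 19 and 11 counts in pair 2 and 0 in the other 4 libraries. Csn1s2a had 1 count in all, and Csn2, beta-casein, and Wap, whey acidic protein, had none. Of the 6 members under the filter, Csn1s1 and Lalba differed between pairs when no filter was applied (edgeR adjusted p = 9.1e-05 and 0.0084), where 31.6% of the 18760 genes then tested did. Per kilobase, Csn3 stood at 266 RPKM in pair 2 and Csn1s1 at 2.42 RPKM.

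Promoters of 3 milk genes are shown because these genes are driven through STAT5 in lactation, and here Csn2 and Wap had 0 counts and Csn1s1 had most of its counts in pair 2. Windows of 250 bases before the RefSeq start (GRCm38.p6, another build than that of the counts) were given for 23 of the 33 members, with 26 windows in all since Cldn7, Elf5 and Esr1 have 2 each. The motif TTCNNNGAA, which reads the same on both strands and is bound by STAT proteins, was found in 4 of the 26 windows (15.4%; Csn1s1, Csn2, Cldn7 and Esr1), and 7.02% of 32851 promoter windows of that length held it. The windows lie at chr5:87665958-87666207 on the plus strand for Csn1s1, at chr5:87699426-87699675 on the minus strand for Csn2 and at chr11:6638650-6638899 on the minus strand for Wap, which has no match. The motif begins 100 bases before the start in Csn1s1 and 93 bases before it in Csn2. Capitals mark the motif.
Csn1s1: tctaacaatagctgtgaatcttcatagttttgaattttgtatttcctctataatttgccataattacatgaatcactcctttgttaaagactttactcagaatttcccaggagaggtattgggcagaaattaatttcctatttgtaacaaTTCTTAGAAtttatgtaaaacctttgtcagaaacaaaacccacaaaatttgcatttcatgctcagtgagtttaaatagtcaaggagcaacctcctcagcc
Csn2: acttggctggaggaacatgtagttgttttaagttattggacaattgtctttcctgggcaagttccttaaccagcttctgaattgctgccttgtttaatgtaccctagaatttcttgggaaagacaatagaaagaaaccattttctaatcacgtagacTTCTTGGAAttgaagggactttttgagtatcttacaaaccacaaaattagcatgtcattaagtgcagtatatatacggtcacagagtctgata
Wap: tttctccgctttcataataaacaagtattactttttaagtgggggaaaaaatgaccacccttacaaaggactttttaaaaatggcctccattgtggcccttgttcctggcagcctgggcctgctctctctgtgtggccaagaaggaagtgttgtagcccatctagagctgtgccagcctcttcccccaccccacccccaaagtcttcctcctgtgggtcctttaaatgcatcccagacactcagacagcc

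Promoters of Epcam, Krt8 and Krt18 are shown as examples of members that were highest in pair 2 together. The letters CAGGTG or CACCTG, the same motif on either strand and the core bound by the repressors ZEB1 and SNAI1, were found in 13 of the 26 windows of the members (50%), which belong to 13 of the 23 genes, and in 17.2% of all windows. No window shown holds both this motif and the STAT motif, while 1 window of Cldn7 holds both, without overlap. The windows of the members differ in base composition from 32.8% to 72.8% GC, and the share was not set against windows of like composition. The letters AACCNGGTT, bound by GRHL factors, were in 0 of the 26 and in 0.24% of all windows. The windows lie at chr17:87635729-87635978 on the plus strand for Epcam, at chr15:102004343-102004592 on the minus strand for Krt8 and at chr15:102027966-102028215 on the plus strand for Krt18. Capitals mark CAGGTG or CACCTG.
Epcam: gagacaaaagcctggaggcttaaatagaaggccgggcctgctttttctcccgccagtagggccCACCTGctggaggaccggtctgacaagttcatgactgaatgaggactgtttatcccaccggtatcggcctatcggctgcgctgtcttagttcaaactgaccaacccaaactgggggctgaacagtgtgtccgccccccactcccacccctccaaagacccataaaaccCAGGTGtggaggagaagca
Krt8: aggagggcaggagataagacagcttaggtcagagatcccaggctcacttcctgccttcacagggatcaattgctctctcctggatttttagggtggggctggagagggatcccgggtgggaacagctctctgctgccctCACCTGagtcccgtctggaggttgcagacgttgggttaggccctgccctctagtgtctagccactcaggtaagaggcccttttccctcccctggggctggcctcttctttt
Krt18: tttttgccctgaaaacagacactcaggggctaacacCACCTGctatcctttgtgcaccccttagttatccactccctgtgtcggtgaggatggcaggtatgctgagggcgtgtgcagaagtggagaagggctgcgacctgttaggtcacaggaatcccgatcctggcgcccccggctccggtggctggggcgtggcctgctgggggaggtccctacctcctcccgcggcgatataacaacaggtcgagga

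**Figure D4:**
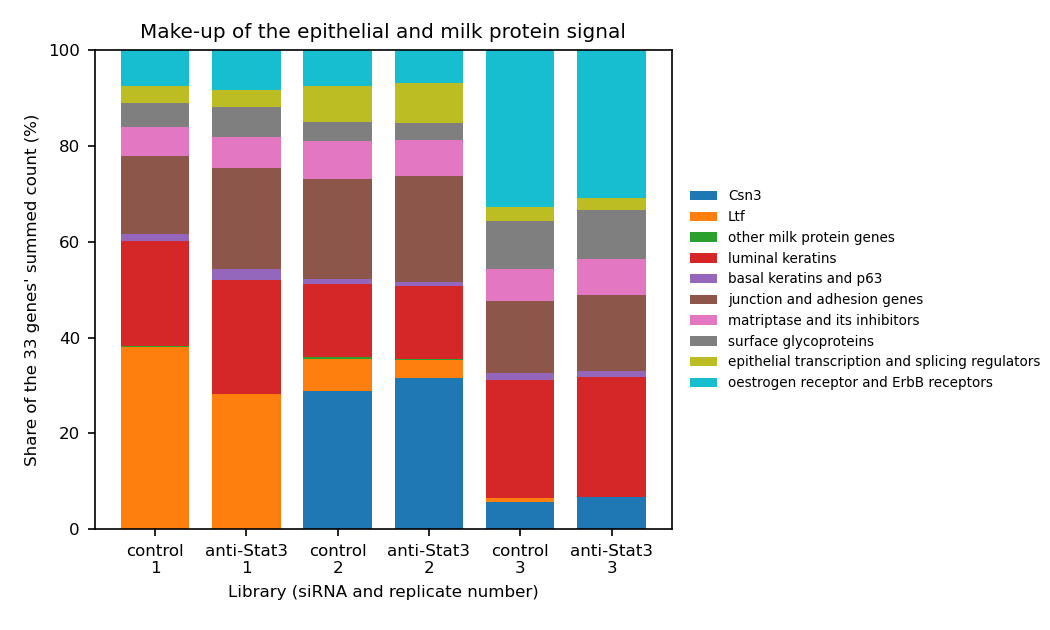
Share of the summed raw count of the 33 genes (%) taken by Csn3, Ltf and each other role in each library, not corrected for transcript length. Ltf took 38.0% and 28.2% in pair 1, Csn3 28.8% and 31.6% in pair 2, and the receptors, mostly Erbb2, the largest part in pair 3.

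The make-up of the epithelial signal also differed between pairs. Milk protein genes took 38.2%, 35.9% and 6.56% of the members' counts in the controls and 28.3%, 35.5% and 6.79% after anti-Stat3 siRNA. Keratins took 23.3%, 16.1% and 25.4% in the controls and 26%, 16% and 25.9% after anti-Stat3 siRNA. Per kilobase the highest members in pair 1 were Ltf (57.5 RPKM), Krt18 (21.8) and Epcam (15.9). In pair 2 they were Csn3, Krt18 and Epcam (266, 66.7 and 43.9 RPKM), and in pair 3 Krt19, Erbb2 and Krt18 (7.26, 7.19 and 6.70 RPKM).

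Anti-Stat3 siRNA changed no member past the threshold. In edgeR with the group alone 0 of 27 members passed, as did 0 of all 13284 genes tested (0%), and 0 members had an unadjusted p under 0.05 (1.77% of all genes did). The targeted gene Stat3 did not pass there either, at -2.33 ± 0.41 (log2, SE, adjusted p = 0.9998), so that fit missed even a large change. With the pair as a block 0 members passed (0.0602% of all genes), and in DESeq2 with that block 0 again (1.66%). Stat3 passed in both blocked fits, at -2.38 ± 0.14 in edgeR (SE, adjusted p = 0.0027) and with an adjusted p of 1.2e-48 in DESeq2. An unadjusted p under 0.05 in the blocked edgeR fit was met by 3 of 27 members and by 10.8% of all genes. The median change of the 27 was -0.04 with the group alone and -0.06 with the block, beside -0.0028 and -0.0053 for all genes, and the pair medians were -0.08, -0.04 and -0.01. Of the 27, 4 were higher and 7 lower in all 3 pairs (17.3% and 16.5% of all genes), and siRNA groups did not overlap for 0 (4.67%).

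**Figure D5:**
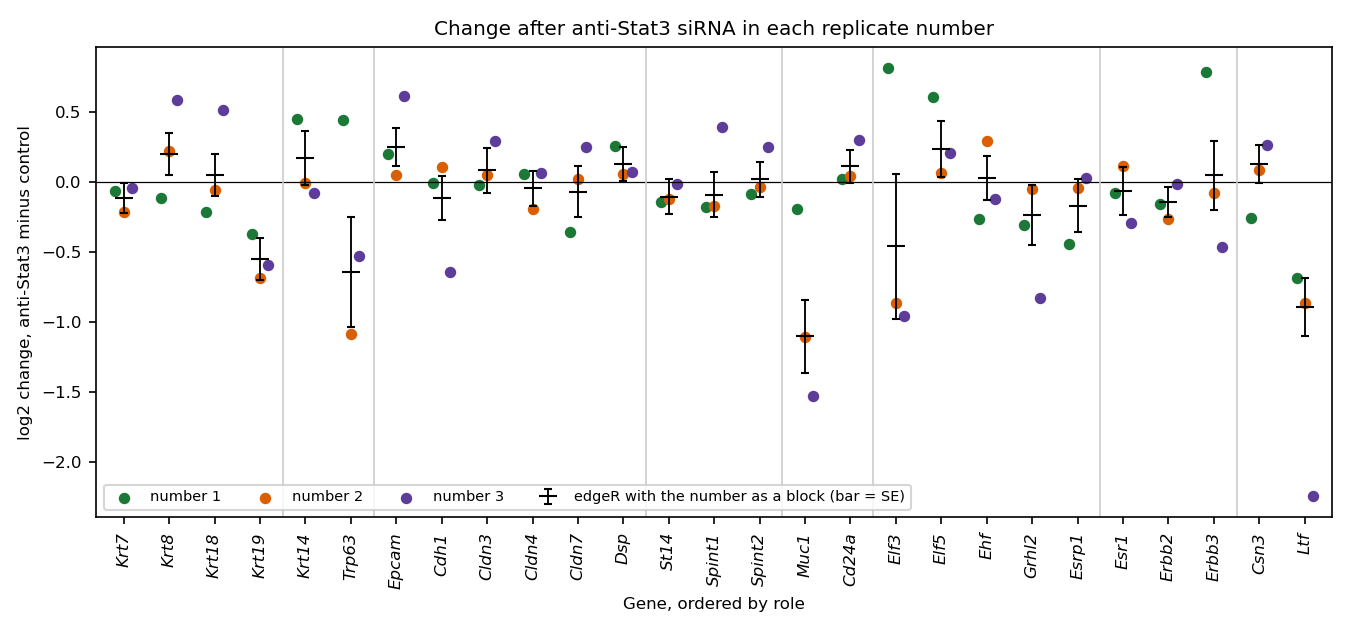
Log2 change, anti-Stat3 minus control siRNA, of each tested member in each pair (points) and in edgeR with the pair as a block (black dash, bar = SE), ordered by role. Muc1, Ltf and Krt19 are lower in all 3 pairs, and Epcam (0.25), Csn3 (0.13) and Erbb2 (-0.14) lie near 0.

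Those 3 members were Ltf, Muc1 and Krt19, each lower in all 3 pairs and none past the threshold over all genes. Ltf had pair changes of -0.69, -0.86 and -2.24, the last from 20 counts to 2, and a log2 change of -0.89 ± 0.21 in blocked edgeR (SE, unadjusted p = 0.0033, adjusted p = 0.182; DESeq2 adjusted p = 0.474). Muc1 had pair changes of -0.19, -1.11 and -1.53 and a log2 change of -1.10 ± 0.26 (adjusted p = 0.182; DESeq2 adjusted p = 0.146). Krt19 had pair changes of -0.37, -0.68 and -0.59 and a log2 change of -0.55 ± 0.15 (adjusted p = 0.224; DESeq2 adjusted p = 0.405).

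Without pair 1, where blocked edgeR called 5.2% of all genes, it called 3 of 29 members, all lower (2.19% of all genes were called lower). These were Muc1 at -1.26 ± 0.25 (SE, adjusted p = 0.0080), Csn1s1 at -1.86 ± 0.44 (0.024) and Ltf at -1.01 ± 0.24 (0.026). With these 4 libraries the filter could be met by pair 2 alone. Csn1s1 met it so, with 101 and 22 counts in pair 2 and 1 and 0 in pair 3. The Csn1s1 call thus rests on the difference within pair 2. DESeq2 with the same 4 libraries called none of the 3 members (adjusted p = 0.061, 0.634 and 0.815). With pair 1 kept, Muc1 and Ltf had the similar changes given above and did not pass, and Csn1s1 was under the filter.

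No other tested member had an unadjusted p under 0.05 in blocked edgeR. Epcam changed by 0.25 ± 0.13, Krt8 by 0.20 ± 0.15, Krt18 by 0.05 ± 0.15, Cdh1 by -0.11 ± 0.16 and Erbb2 by -0.14 ± 0.11 in blocked edgeR (log2, SE). Csn3, the member with the largest log2 difference between pairs, changed by 0.13 ± 0.14. Elf5 changed by 0.24 ± 0.20 and Esr1 by -0.06 ± 0.17. With the group alone the standard errors were wider, 1.15 for Epcam and 2.48 for Csn3.

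Other epithelial genes, 38 from a list that holds no member, were also mostly highest in pair 2. Of the 31 tested, 29 differed between pairs (93.5%, against 41.5% of all genes), 20 were higher and 2 lower in pair 2 than in pair 1, and 27 were higher and 1 lower in pair 2 than in pair 3. Dsg2, a desmosomal cadherin, had 33.4 and 33.6 CPM in pair 2 and at most 3.38 CPM elsewhere. Itgb4, the hemidesmosome integrin, had 57.0 and 43.5 CPM in pair 2 and at most 10.3 CPM elsewhere, with a change of -0.52 ± 0.13 after anti-Stat3 siRNA (SE, blocked edgeR adjusted p = 0.199). In the siRNA comparison 0 of the 31 passed, with the group alone or with the block in edgeR, or in blocked DESeq2.

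Of 12 other lactation genes 6 were tested and 5 differed between pairs (41.5% of all genes tested did), none passing in the siRNA comparison. Aqp5, a water channel of secretory epithelia, came closest to Csn3, with 0.270, 75.9 and 2.34 CPM in controls 1 to 3 and 1.25, 74.9 and 3.37 CPM in their anti-Stat3 partners, and a log2 difference of 6.63 ± 0.37 between pairs 2 and 1 (SE, edgeR adjusted p = 5.5e-05). Csn1s2b, Glycam1 and Olah had 0 counts in all libraries. In the list of prolactin, STAT5 and luminal regulators 13 of 15 were tested and 0 passed in the siRNA comparison. Between pairs 10 of the 13 differed (76.9%, beside 41.5% of all genes tested). Prlr, the prolactin receptor, had 9.39, 24.4 and 1.86 CPM in controls 1 to 3 and 5.89, 21.2 and 0.537 CPM in their anti-Stat3 partners, highest in pair 2 and lowest in pair 3. Pgr, the progesterone receptor, had 72.6 and 87.8 CPM in pair 2, 31.3 and 26.5 CPM in pair 3 and about 4 CPM (4.06 and 4.26) in pair 1. Stat5a and Stat5b stayed between 11.4 and 43.1 CPM.

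Of 10 mesenchymal genes 8 differed between pairs (41.5% of all genes tested did), in mixed directions. In pair 2, 2 were higher and 4 lower than in pair 1 (14% and 12.1% of all genes). Against pair 3, 1 was higher and 4 were lower in pair 2 (12.2% and 13%). Snai2, a transcription factor of mesenchymal transition, was highest in pair 2 (55.4 and 87.6 CPM, at most 49.0 elsewhere), and Fn1, fibronectin, was higher there than in pair 1 by 0.83 ± 0.23 on the log2 scale (SE, edgeR adjusted p = 0.037). Vim, the intermediate filament of fibroblasts, had 1171 and 1238 CPM in pair 2 and at least 1891 CPM elsewhere. Cdh2, the gene of N-cadherin, had 47.6 and 78.5 CPM in pair 2 and at least 95.7 CPM elsewhere. Snai1, a repressor of Cdh1, had 63.1, 81.5 and 139 CPM in controls 1 to 3 and 57.8, 34.6 and 72.8 CPM in their anti-Stat3 partners, a log2 change of -0.77 ± 0.20 in blocked edgeR that did not pass (SE, adjusted p = 0.204) but passed in blocked DESeq2 (adjusted p = 0.031), the only gene of 10 in that list to do so. Of the other ErbB receptors and ligands, 7 of 9 were tested and 0 passed in the siRNA comparison. Between pairs 4 of the 7 differed (57.1%, beside 41.5% of all genes tested). Egfr stayed between 168 and 256 CPM, Erbb4 had 1 count in all, and Ereg, an EGF receptor ligand, was highest in pair 1 (303 and 137 CPM, at most 20.4 elsewhere).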

How the data were processed

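The submitters' processing notes name TopHat2 2.0.10, HTSeq and the build mm9. The authors deposited raw counts for 24015 gene symbols, without unassigned reads, and 0 columns of samples went unused. RNA was extracted with TRIzol, selected for poly(A) and made into TruSeq libraries, per the labels' protocols. The strand setting of the counting is not given in these sources, and reads shared by similar genes (keratins, claudins, Erbb2 and its rat transgene) may be split between them. Columns were matched to samples by the group and number in their names.

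The deposited counts went into quasi-likelihood F tests (edgeR 4.0.16 in R 4.3.3) after TMM scaling and filterByExpr (minimum count 10, minimum total 15), and p-values were adjusted by Benjamini-Hochberg over all 13284 genes left, at 0.05. The main siRNA test had the group as its only term. Fits with the number as a block, DESeq2 1.42.0, limma-voom (limma 3.58.1), other scalings, no filter and left-out libraries were alternatives. SE is the fitted log2 change over the root of F. Pair changes used log2 CPM with a prior count of 2. RPKM used transcript lengths of GENCODE annotation of another build. That length choice, the promoter motifs and the naming of Stat5a, Erbb4, Lep, Cidec, Csn1s2b, Glycam1 and Olah came after the values were seen.

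Across genes, a sample's deviation from its group mean correlated with that of its same-numbered partner at 0.834, 0.818 and 0.831, and with other samples' at -0.163 or below, which is why the numbers were taken as pairs. Separate animals or cultures are not named for the replicates, so the p-values cover the spread among these samples alone, technical or not.

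On 1 simulated siRNA data set of 13141 genes, 100 were changed by a fold of 2 and 100 by a fold of 4. Recovery was 0% and 26% for edgeR with the group alone. For blocked edgeR it was 87% and 100%, where 16 of 203 calls were false. In the data blocked edgeR called only 8 of 13284 genes, and the adjusted threshold is stricter where fewer genes change. How often a 2-fold siRNA change would be called in the data was thus not measured. For the comparison between pairs (13190 genes) recovery was 74% and 100%, with 26 of 200 calls false. There, genes were changed in pair 2 only, with no other difference between pairs, while 41.5% of genes differed between pairs in the data. Changed genes were drawn above a minimum mean count, so recovery was not measured for genes with few counts. Genes named were all members, Stat3, and otherwise genes among the 4 of their list with the smallest p in a test or the 4 with the highest level. The members and lists were chosen with earlier results of these data known.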

Additional observations from a re-analysis of the deposited data

How the results depend on the processing

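Depth limits Krt5, Elf3, Trp63 and the milk genes other than Csn3 and Ltf, whose counts run from 0 to 101. Under other scalings, no filter, DESeq2, limma-voom or a replicate block no member passed in the siRNA comparison. The exception among all settings was blocked edgeR without pair 1, with 3 members (Muc1, Csn1s1 and Ltf). Csn1s1 passed the filter there through pair 2 alone. Over all genes that comparison called 17 in DESeq2 without the replicate block and 8, 220 and 8 in edgeR, DESeq2 and limma-voom with it. Leaving out a library or a pair with the group alone gave 0 to 40 genes, the most without control 1, and 34 without pair 1. With the replicate block it gave 704, 3 and 0 genes in edgeR and 432, 14 and 20 in DESeq2 without pairs 1, 2 and 3. The members' median change was -0.0832 with no filter, -1.38 to 1.26 with a library or pair left out, and with the replicate block -0.128 in edgeR without pair 3 and -0.0704 and 0.00379 in DESeq2 without pairs 1 and 2. Leaving out 1 library breaks a pair.

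Between pairs, all 27 tested members passed with RLE factors, total counts, DESeq2 and limma-voom and 29 of 31 without a filter. With a library or pair left out 19 to 29 members passed, the fewest without pair 2, and 2824 to 6147 of all genes, the fewest without anti-Stat3 sample 3. The filter then needed fewer libraries, so Csn1s1 and Lalba could pass it through pair 2 alone. The upper end of 29 includes these genes, and their part in it is no support for a difference between pairs.

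Some changes after anti-Stat3 siRNA took the other sign, none of them past the threshold. These were Krt18 (0.0857), Cdh1 (-0.174), Spint1 (0.0334), Spint2 (0.0453), Ehf (-0.0229), Erbb3 (0.0141) and Csn3 (-0.249) in limma-voom without the replicate block. In limma-voom with it they were Cdh1 (-0.0356). In edgeR with the replicate block they were Krt18 (0.0512), Cdh1 (-0.113), Spint2 (0.0211) and Erbb3 (0.0498). In DESeq2 with the replicate block they were Krt18 (0.0566), Cdh1 (-0.122), Spint2 (0.026) and Erbb3 (0.0728). In edgeR with the replicate block and without pair 1 they were Krt18 (0.179), Krt14 (-0.0242), Cdh1 (-0.145), Cldn7 (0.0803) and Spint2 (0.0705). In DESeq2 with the replicate block and without pair 1 they were Krt18 (0.203), Krt14 (-0.0335), Cdh1 (-0.197), Cldn7 (0.11), Spint1 (0.0267) and Spint2 (0.0913). In edgeR with the replicate block and without pair 2 they were Krt18 (0.115), Cdh1 (-0.273), Cldn4 (0.0588), Spint1 (0.0125), Spint2 (0.0607), Ehf (-0.222) and Erbb3 (0.195). In DESeq2 with the replicate block and without pair 2 they were Krt18 (0.134), Cdh1 (-0.309), Cldn4 (0.0591), Spint1 (0.0759), Spint2 (0.0741), Ehf (-0.211) and Erbb3 (0.177). In edgeR with the replicate block and without pair 3 they were Esr1 (0.0395) and Erbb3 (0.185). In DESeq2 with the replicate block and without pair 3 they were Esr1 (0.0342) and Erbb3 (0.295). Esr1 stood at 0.0223 with total counts and 0.00103 with no filter. With the group alone and a library or pair left out, log2 changes ranged over both signs for Krt7 (-0.702 to 0.491), Krt8 (-0.845 to 1.05), Krt18 (-1.22 to 1.11), Krt14 (-0.29 to 0.704), Trp63 (-1.51 to 0.657), Epcam (-0.984 to 1.35), Cdh1 (-1.75 to 1.65), Cldn3 (-1.38 to 1.52), Cldn4 (-1.18 to 1.12), Cldn7 (-1.71 to 1.44), Dsp (-1.25 to 1.56), St14 (-1.69 to 1.45), Spint1 (-1.51 to 1.26), Spint2 (-1.2 to 1.18), Muc1 (-2.98 to 0.639), Cd24a (-0.437 to 0.611), Elf3 (-1.63 to 1.65), Elf5 (-2.32 to 2.95), Ehf (-2.02 to 1.98), Grhl2 (-2.33 to 1.78), Esrp1 (-2.41 to 1.95), Esr1 (-0.959 to 0.731), Erbb2 (-0.567 to 0.304), Erbb3 (-2.08 to 2.24), Csn3 (-4.94 to 5.22) and Ltf (-1.88 to 0.258).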

Other observations

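Oxtr, the oxytocin receptor through which myoepithelial cells contract and eject milk, was highest in pair 2 while the contractile gene Acta2 was lowest there. Its level was 0.676, 29.4 and 5.21 CPM in controls 1 to 3 and 0.376, 17.4 and 2.68 CPM in their anti-Stat3 partners. The log2 difference was 5.46 ± 0.24 between pairs 2 and 1 and 2.58 ± 0.18 between pairs 2 and 3 (SE; edgeR adjusted p = 2.2e-05 and 0.0002). After anti-Stat3 siRNA Oxtr changed by -0.83 ± 0.17 in blocked edgeR, which did not pass (SE, adjusted p = 0.169; DESeq2 adjusted p = 0.134). Nfib, a transcription factor of milk gene expression, had 137 and 151 CPM in pair 2 and between 38.3 and 43.6 CPM elsewhere. Xdh, xanthine dehydrogenase, which takes part in milk fat secretion and is made in many tissues, did not follow Csn3, with a log2 difference of -0.14 ± 0.20 between pairs 2 and 1 (SE, adjusted p = 0.63).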
